A study of Homo sapiens with 4 samples.

Results

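The MYC and MXD network is a group of transcription factors that pair through a helix-loop-helix and leucine zipper region and compete for the same DNA site. Its 10 genes examined here were MYC, MYCN, MAX, MXD1, MXD3, MXD4, MXI1, MNT, MLX and MGA, taken by gene symbol from the 20348 genes of the deposited count table, and each symbol matched a single Ensembl identifier. K562, a line from chronic myeloid leukemia, and THP-1, a line from acute monocytic leukemia, were each treated with 100 nM periplocin, a cardiac glycoside from Cortex periplocae, or with DMSO, and harvested at 72 h. DMSO is the control's name in the library names and the methods, and the titles say blank. Poly-A RNA was sequenced once for each of the 4 conditions, so the DMSO library of each line is its only control and no difference described here has a replicate check.

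MYC and MYCN drive growth and ribosome production as pairs with MAX, which is shared by most members. The MXD proteins (MXD1, MXD3, MXD4 and MXI1) and MNT also pair with MAX, bind the same sites and bring the SIN3-HDAC corepressor. Some of their genes are known to be switched on as blood cells stop dividing and mature. MXD3 is instead linked to dividing cells, and MNT is expressed in growing and resting cells alike. MGA pairs with MAX inside a Polycomb-like repressor complex. MLX is the partner of the glucose sensors MondoA (MLXIP) and ChREBP (MLXIPL) and can pair with some MXD proteins and MNT.

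The site these pairs prefer is the E-box CACGTG, which reads the same on both strands. In RefSeq promoter windows on GRCh38.p14, from 250 bases before to 50 bases after a gene's start, 7.26% of 35116 windows held it. Of the 10 members, 9 had windows, 14 in all, and 3 windows held 1 E-box each. MYC had no window, so its promoter was not searched. These 3 sites are shown with their flanks because, among the members with a window, only their genes carry in the window the letters the network reads. The E-box is in capitals, and each site is written 5′ to 3′ on the gene's strand.

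MXD4, chr4:2262330-2262359, minus strand: gggccgggccacCACGTGctgttgctaagc

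MNT, chr17:2401236-2401265, minus strand: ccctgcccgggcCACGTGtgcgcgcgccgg

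MLX, chr17:42567038-42567067, plus strand: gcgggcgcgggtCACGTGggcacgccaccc

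Counted from the RefSeq start of the window, the E-box began 238 bases before the start of MXD4, 193 before that of MNT and 50 before that of MLX. The starts of these genes in GENCODE release 29, which gives the gene positions below, differ from the RefSeq starts. A match is a description of the letters and not evidence of binding. MYCN, MAX, MXD1, MXD3, MXI1 and MGA had no match in their windows.

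Library totals were between 16381149 and 20622694 counts. The log2 ratios below compare periplocin with DMSO within a line after TMM scaling, with a 95% interval from the counts by the Clopper-Pearson method, which covers counting error only. A gene was called when the ratio was at least 2-fold (1 on the log2 scale), among genes that averaged 1 CPM (counts per 1000000 counts of the library) or more over the pair of libraries. The erythroid markers fixed for K562 were all present in its libraries (8 of 8 at 1 CPM or more), and 8 of 9 monocytic and granulocytic markers were present in each THP-1 library. The marker under 1 CPM was CD14 in THP-1 DMSO and MPO (0.79 CPM) after periplocin. The summed erythroid markers went from 2030 to 8720 CPM in K562, where all 8 were higher in periplocin, while the summed THP-1 markers, of which AZU1 made up the most, went from 1990 to 1780 CPM in THP-1. Within that sum AZU1 went from 1060 to 857 CPM, CEBPA from 315 to 271, LYZ from 192 to 155 and CSF1R from 150 to 129. CD33 went from 65.6 to 42.9 and MPO from 2.09 to 0.79 CPM. The remaining markers were higher in periplocin, CD14 going from 0.388 to 21.6, ITGAM from 27.7 to 60 and SPI1 from 180 to 247 CPM. Mitochondrially encoded genes took 5.62% (DMSO) and 2.07% (periplocin) of the K562 counts, and 5.24% and 3.92% of the THP-1 counts. The part of these shifts in the results below was not tested. In such bulk samples, fewer cells that express a gene and less of its RNA per cell cannot be told apart.

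MYC was lower in periplocin in both lines, past 2-fold in THP-1. MYC (ENSG00000136997, chromosome 8), the activator of the network, had 5322 counts (325 CPM) in K562 DMSO and 2889 (174 CPM) in K562 periplocin. In THP-1 it had 5889 counts (286 CPM) in DMSO and 1024 (57.8 CPM) in periplocin. The periplocin libraries of the lines stood further apart than the DMSO libraries, and THP-1 periplocin was the lowest of the 4. The log2 ratio was -0.91 (95% interval -0.97 to -0.84) in K562, which is short of 2-fold, and -2.29 (-2.39 to -2.20) in THP-1, a 4.9-fold fall. The log2 ratios of the lines differed by 1.39, with a counting standard error (SE) of 0.06.

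MYCN, the neural relative of MYC, had 0 counts in all 4 libraries, which allows at most 0.145 to 0.183 CPM per library at 3 counts. It entered no comparison, so 9 of the 10 members were tested in each line. MAX (ENSG00000125952), the shared partner, had 1183 and 1153 counts in K562 DMSO and periplocin, and 1095 and 842 in THP-1. Its log2 ratio was -0.06 (-0.18 to 0.05) in K562 and -0.15 (-0.28 to -0.02) in THP-1. Neither was near 2-fold.

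Of the 4 MXD genes, MXD3 and MXD4 were called higher in K562 and MXD1 in THP-1. Positions here are of GENCODE release 29 on GRCh38. MXD1 (ENSG00000059728, chr2:69897688-69942945, plus strand), a repressor known from maturing myeloid cells, had 1010 counts (61.7 CPM) in K562 DMSO and 1786 (108 CPM) in K562 periplocin. In THP-1 it had 423 counts (20.5 CPM) in DMSO and 726 (41 CPM) in periplocin. In both lines the periplocin library was the higher, and both K562 libraries lay above both THP-1 libraries. The log2 ratio was 0.80 (0.68 to 0.91) in K562 and 1.01 (0.83 to 1.19) in THP-1. The THP-1 value lies at the 2-fold line, and with total counts in place of TMM it fell below it. The difference between the lines was -0.21 (-0.42 to -0.01).

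MXD4 (ENSG00000123933, chr4:2247432-2262294, minus strand) rose in K562 from 357 to 975 counts (21.8 to 58.9 CPM), while in THP-1 it was at 1260 counts in DMSO and 1154 in periplocin (61.1 and 65.1 CPM). The K562 periplocin library therefore came close to the level that both THP-1 libraries held, and K562 DMSO lay below all 3. The log2 ratio was 1.42 (SE 0.09) in K562 and 0.10 (SE 0.06) in THP-1, and the difference between the lines was 1.32 (SE 0.11). MXD3 (ENSG00000213347, chr5:177301461-177312757, minus strand), the member linked to dividing cells, was likewise lowest in K562 DMSO, with fewer counts. It had 76 counts in K562 DMSO (4.64 CPM) and 190 in K562 periplocin, against 214 and 207 in THP-1, so the other 3 libraries lay between 10.4 and 11.7 CPM. Its log2 ratio was 1.29 (0.90 to 1.70) in K562 and 0.18 (-0.10 to 0.46) in THP-1, with a difference of 1.11 (0.64 to 1.58).

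MXD3 shares exons with neighbours in GENCODE release 29, 18% of its exon bases with RAB24 on the same strand and 22.5% with PRELID1 on the opposite strand, so some reads could have been counted for either gene. RAB24 had a log2 ratio of -0.02 in K562 and 0.40 in THP-1, and PRELID1 had -0.30 and -0.22. MLX shares 18.1% of its exon bases with PSMC3IP on the opposite strand, whose log2 ratios were 0.31 and 0.16.

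MXI1, a further MXD repressor with 3 RefSeq promoter windows, had 397 and 447 counts in K562 DMSO and periplocin, and 793 and 515 in the THP-1 pair. The log2 ratio was 0.14 (-0.05 to 0.34) in K562 and -0.39 (-0.56 to -0.23) in THP-1. It was the only MXD gene with a lower level in THP-1 periplocin than in THP-1 DMSO. Summed over the 4 MXD genes, K562 had 1840 counts in DMSO and 3398 in periplocin (log2 ratio 0.86, 0.78 to 0.94). THP-1 had 2690 and 2602 (log2 ratio 0.18, 0.10 to 0.26).

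The remaining members stayed within 2-fold. MNT, a repressor that is expressed in growing and resting cells alike, went from 387 to 567 counts in K562 (log2 ratio 0.52, 0.34 to 0.71) and from 401 to 337 in THP-1 (-0.02, -0.23 to 0.19). MLX went from 1250 to 1502 counts in K562 (0.24, 0.13 to 0.35) and from 2007 to 2502 in THP-1 (0.55, 0.46 to 0.63). MGA had 2105 and 2100 counts in K562 (-0.03, -0.12 to 0.06) and 5081 and 5083 in THP-1 (0.23, 0.17 to 0.29). Before any drug THP-1 held MGA at 246 CPM and K562 at 129 CPM.

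**Figure D1:**
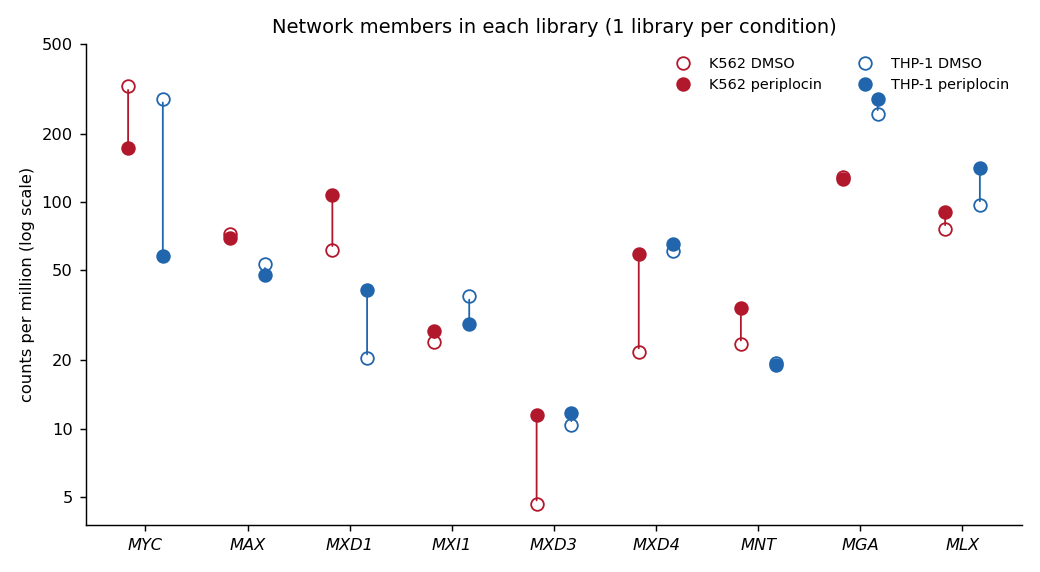
Level in CPM (log axis) of the 9 members with counts, in each of the 4 libraries; open circles are DMSO, filled circles periplocin, red K562 and blue THP-1, with a line joining the libraries of a cell line. MYC dropped in THP-1 from 286 to 57.8 CPM, and MXD4 in K562 went from 21.8 to 58.9 CPM, near the THP-1 levels of 61.1 and 65.1.

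By the 2-fold rule, 2 of 9 members were called in K562, both higher (MXD3 and MXD4), and 2 of 9 in THP-1, MXD1 higher and MYC lower. Over all genes tested, 20.4% were called in K562 (8.84% higher, 11.6% lower) and 18.5% in THP-1 (8.03% higher, 10.5% lower), so the share of members called was near the background in each line. The median log2 ratio of the members was 0.24 in K562, where that of all 11862 genes was -0.01, and 0.10 in THP-1, where that of all 12341 genes was -0.02. None of the 9 members was called in the same direction in both lines, against 4.42% of 10779 genes. MYC, MXD3 and MXD4, 3 of 9, had log2 ratios that differed between the lines by at least 1 with an interval that left out 0, against 20.5% of 10779 genes. This rule rests on counting error alone.

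**Figure D2:**
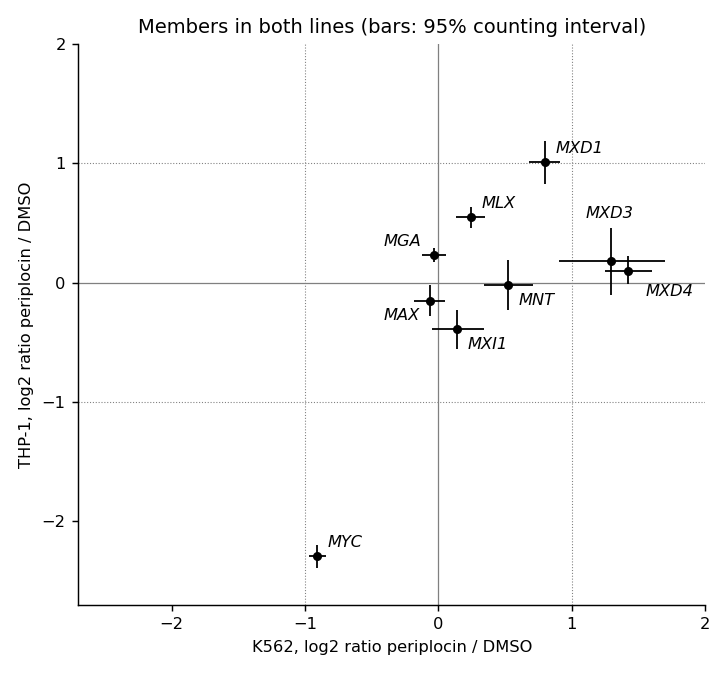
Log2 ratio of periplocin to DMSO for the 9 tested members, K562 on the horizontal and THP-1 on the vertical axis, with bars for the 95% counting interval and dotted lines at 2-fold. MYC lies alone at -0.91 and -2.29. MXD1 is above 0 on both axes, at 0.80 and 1.01, and past 2-fold in THP-1 only. MXD3 and MXD4 are past 2-fold in K562 only.

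A model of all libraries jointly, with terms for the line and for periplocin, measures its error by how unlike the lines responded. With edgeR's quasi-likelihood test, 0 of 13584 genes (0%) had an adjusted p under 0.05 and 1535 had an unadjusted p under 0.05. MYC had a log2 change of -1.59 (unadjusted p = 0.00659, edgeR adjusted p = 0.367), lower in both lines. MXD1 had 0.91 (unadjusted p = 0.0169, edgeR adjusted p = 0.376), higher in both lines. The edgeR adjusted p of the other 7 members lay between 0.51 for MXD4 and 0.919 for MXI1. DESeq2 with the same terms called 125 genes, and MYC was the single member among them (DESeq2 adjusted p = 0.046). DESeq2 gave MXD1 an adjusted p of 0.309.

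Levels of different genes were compared per kb of annotated exons, and the order depends on that length. In K562 DMSO the order was MYC at 108 CPM per kb, MLX at 17.9, MAX at 16.3, MXD1 at 9.71, MGA at 7.28, MXI1 at 5.26, MXD4 at 3.09, MNT at 2.71 and MXD3 at 0.9. The counting intervals of MLX and MAX overlapped, as did those of MXD4 and MNT. Overlap is given as a description here and is not a test of a difference. In K562 periplocin MYC stood at 58.1 CPM per kb and MLX at 21.3. MXD1 at 17 and MAX at 15.7 had overlapping counting intervals. MXD4 at 8.34 CPM per kb lay above MGA at 7.18. The lower places held MXI1 at 5.86, MNT at 3.92 and MXD3 at 2.23 CPM per kb.

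In THP-1 DMSO the order was MYC at 95.2 CPM per kb, MLX at 22.9, MGA at 14, MAX at 12, MXD4 at 8.66, MXI1 at 8.35, MXD1 at 3.23, MNT at 2.23 and MXD3 at 2.01. The counting intervals of MXD4 and MXI1 overlapped, as did those of MNT and MXD3. In THP-1 periplocin MLX led at 33.1 CPM per kb, ahead of MYC at 19.3 and MGA at 16.2. MAX at 10.7 and MXD4 at 9.23 followed. Then came MXD1 at 6.45 and MXI1 at 6.31, with overlapping counting intervals. MXD3 at 2.27 and MNT at 2.18 were last, and their intervals overlapped too. Per kb of coding sequence, applied to the order and the ratio below after seeing the data, MYC still led in both DMSO libraries. In K562 periplocin it then stood at 128 CPM per kb, under MXD1 at 163 and MAX at 145. In THP-1 periplocin MLX led on that length too, at 158, followed by MXD4 at 104 and MAX at 99, with MYC at 42.4 CPM per kb. Without any length MGA led in THP-1 periplocin, at 287 CPM.

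Shares were taken per kb over the members that pair with MAX (MYC, MYCN, the 4 MXD genes, MNT and MGA). MYCL, a further MYC gene, is not a member and was left out of this pool. It had 44.8 and 10.3 CPM in K562 DMSO and periplocin, and 27 and 40.8 CPM in the THP-1 pair. Of the pool, MYC made up 78.9% (95% counting interval 78.2 to 79.6) in K562 DMSO and 56.6% (55.5 to 57.8) in K562 periplocin. In THP-1 MYC made up 71.2% (70.5 to 72) in DMSO and 31.1% (29.7 to 32.5) in periplocin. The MXD genes together went from 13.8% to 32.5% in K562, and in THP-1 from 16.7% to 39.2%. The ratio of MYC to the summed MXD genes, in CPM per kb, was 5.71 in K562 DMSO and 1.74 after periplocin, and for THP-1 it was 4.28 and 0.794. Which side was larger in K562 periplocin turned with the length, since the ratio was 0.431 per kb of coding sequence and 0.85 without length. The ratio was lower in periplocin than in DMSO in both lines with each of the 4 choices of length. The share of MYC was lower in periplocin in both lines with every choice of length tried, while the shares themselves moved with that choice. In THP-1 the summed MXD counts themselves had a log2 ratio of 0.18, beside -2.29 for MYC.

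**Figure D3:**
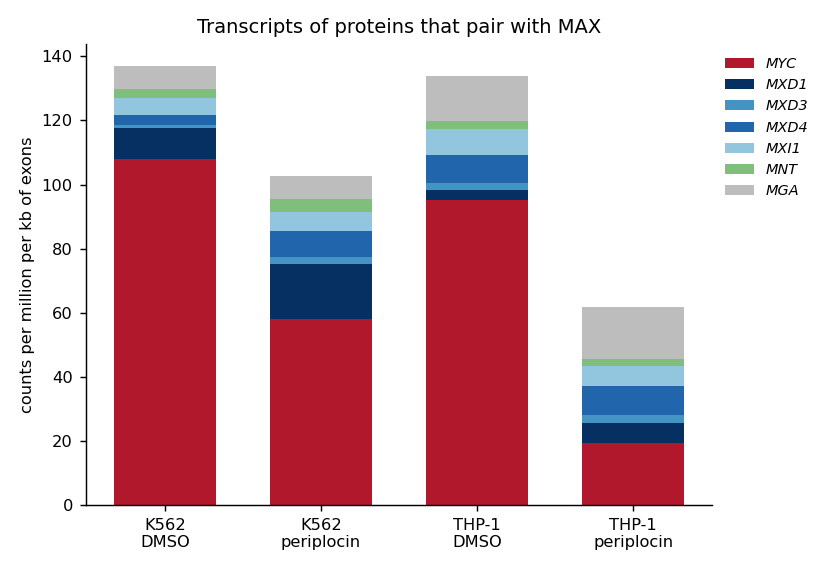
Stacked CPM per kb of exons for the 7 expressed members whose proteins pair with MAX, 1 bar per library, from MYC at the base to MGA at the top. MYCL, which is not a member, is left out. MYC fills 78.9% and 71.2% of the DMSO bars of K562 and THP-1, and 56.6% and 31.1% of the periplocin bars.

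Genes that MYC is known to activate were called lower more often than all genes in THP-1, and at a share near the background in K562. The list of 61 genes, many of them for ribosome assembly, was written from general knowledge. Like the other lists, it was chosen with earlier results of these data known. In THP-1, 25 of 61 tested genes (41%) were called lower and 0 higher, with a median log2 ratio of -0.89, where 10.5% of all genes were called lower and their median was -0.02. In all, 59 of the 61 had a log2 ratio below 0. In K562, 9 of 60 (15%) were called lower and 3 higher, with a median of -0.27, where 11.6% of all genes were called lower and their median was -0.01. Of the 60 genes tested in both lines, 7 were called lower in both, 17 in THP-1 alone and 2 in K562 alone by this rule. Over all 10779 genes tested in both lines, 4.42% were called in the same direction in both, whether higher or lower. The shares of all genes called lower in both lines, or lower in a single line, were not counted.

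ODC1, the rate-limiting enzyme of polyamine synthesis and a classical MYC target, fell in K562 from 6549 to 2574 counts (log2 ratio -1.37, -1.44 to -1.31). In THP-1 ODC1 fell from 2497 to 626 (-1.77, -1.89 to -1.64). TERT, the catalytic subunit of telomerase, fell in K562 from 79 to 24 counts (-1.74, -2.47 to -1.07) and in THP-1 from 530 to 5 (-6.47, -8.13 to -5.27). IPO4, a nuclear import receptor, fell in K562 from 696 to 341 counts (-1.06) and in THP-1 from 1017 to 169 (-2.36). RABEPK fell to 212 counts from 701 in K562 (-1.75) and to 65 from 231 in THP-1. The other genes called lower in both lines, named here after their values were seen, were SRM (spermidine synthase), HK2 (a hexokinase) and RRP9 (a ribosome assembly factor). SRM had 1062 and 469 counts in the K562 pair (-1.21) and 1070 and 320 in the THP-1 pair (-1.51).

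AIMP2, a part of the tRNA synthetase complex, fell in K562 from 736 to 240 counts (-1.64) and went from 559 to 251 in THP-1 (-0.92). The 3 genes called higher in K562 were PLK1, a mitotic kinase, from 1276 to 4739 counts (1.87), SORD, sorbitol dehydrogenase, from 1163 to 4261 (1.85), and RCL1, from 486 to 1045 (1.08). In THP-1 RCL1 fell from 601 to 213 counts (-1.27), and SORD went from 1109 to 487 (-0.96).

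**Figure D4:**
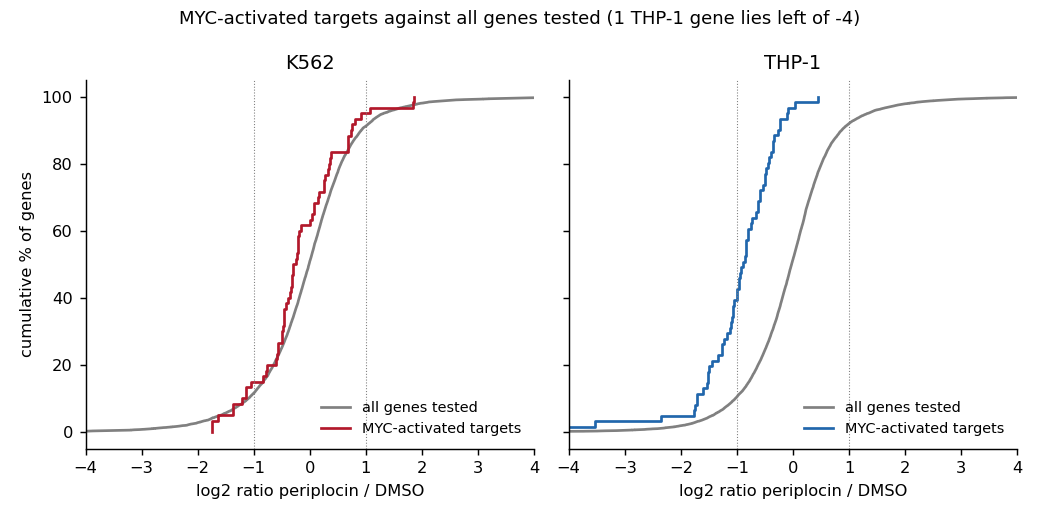
Cumulative percentage of genes against the log2 ratio of periplocin to DMSO, for the MYC-activated targets (coloured steps) and all genes tested (grey), K562 left and THP-1 right, with dotted lines at 2-fold. The steps lie left of the grey curve over its whole range in THP-1, at a median of -0.89, and near it in K562, at a median of -0.27; 1 THP-1 gene, TERT at -6.47, lies beyond the axis.

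The target list held the E-box more often than all genes. Its genes were chosen as known MYC targets and the E-box is the site MYC pairs prefer, so this share is not independent of that choice. Of the 61 targets, 51 had RefSeq promoter windows, and 27 of the 51 (52.9%) held CACGTG in at least 1 window, against 8.77% of 27305 genes and 10.9% of the 15340 genes of the count table with a window. Of the targets tested in THP-1, 16 of 27 with the E-box (59.3%) and 6 of 24 without it (25%) were called lower. In K562 it was 8 of 26 (30.8%) and 1 of 24 (4.17%). Over all genes tested the split was small in THP-1, at 12.1% of 1269 genes with the E-box and 9.75% of 8710 without it. In K562 it ran the other way, at 8.5% of 1235 genes with the E-box and 11.3% of 8365 without it. These are shares without a test. Of the 7 targets called lower in both lines, RABEPK had no match in its window, and ODC1, SRM, IPO4, HK2, TERT and RRP9 had at least 1. A site of 3 of these 6, picked as examples, is shown, with the E-box in capitals and written 5′ to 3′ on the gene's strand, to set beside those of MXD4, MNT and MLX. The ODC1 window holds 2 matches, of which 1 is printed.

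ODC1, chr2:10448024-10448053, minus strand: ccgggccccgggCACGTGtgcggcgcgcct

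SRM, chr1:11060200-11060229, minus strand: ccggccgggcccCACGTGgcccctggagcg

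IPO4, chr14:24188828-24188857, minus strand: tgtcagaacctcCACGTGctgtccctcccc

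Genes that MYC is known to repress were called in both directions in K562 and in 1 direction in THP-1. In THP-1, 4 of 8 tested genes were called higher and 0 lower, with a median log2 ratio of 1.19, and in K562 3 of 7 were called higher and 2 lower, with a median of 0.19. Over all genes tested, 8.03% were called higher and 10.5% lower in THP-1, and 8.84% and 11.6% in K562, beside which lists of 7 and 8 genes are small. CDKN1A, the p21 inhibitor of cyclin-dependent kinases, rose in THP-1 from 500 to 2308 counts (2.44, 2.30 to 2.58). In K562 it fell from 825 to 386 (-1.12, -1.30 to -0.95). FTH1, the heavy chain of ferritin, has near-identical pseudogenes that make its count uncertain. It rose from 8513 to 32878 counts in THP-1 (2.18) and had a log2 ratio of 0.19 in K562. NDRG2 rose from 307 to 2183 counts in K562 (2.80), CDKN1C, the p57 inhibitor, from 165 to 483 (1.52) and NDRG1 from 292 to 598 (1.01). In THP-1 NDRG1 went from 493 to 663 counts (0.66) and NDRG2 from 140 to 89 (-0.42). CDKN1C was also called higher in THP-1, at low counts, from 13 to 37 (1.73, 0.79 to 2.78). THBS1, a matrix protein named here after its values were seen, fell in K562 from 208 to 48 counts (-2.14) and rose in THP-1 from 11 to 43 (2.18). NDRG1 in K562 fell below 2-fold with upper quartile scaling, and in THP-1, with a minimum of 5 CPM, 2 of the 4 calls were left.

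Among other E-box factors, 1 of 6 was called higher and 1 lower in each line, and they were different genes. That is 2 of 6 per line, where 20.4% of all genes were called in K562 and 18.5% in THP-1. MYCL, a further MYC gene, fell from 734 to 171 counts in K562 (44.8 to 10.3 CPM, log2 ratio -2.13, -2.38 to -1.89) and went from 557 to 723 in THP-1 (0.61, 0.45 to 0.77). TFAP4, itself a known MYC target, had 509 and 273 counts in the K562 pair (-0.92) and fell from 289 to 99 in THP-1 (-1.31). USF1 went from 428 to 940 counts in K562 (1.11) and USF2 from 1102 to 2219 (0.98), against 0.44 and 0.23 in THP-1.

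In the MondoA arm, which uses MLX, both target genes had log2 ratios of opposite sign in the lines. MLXIP, the gene of MondoA, had log2 ratios of 0.96 in K562 (3243 to 6412 counts) and 0.42 in THP-1 (2008 to 2289 counts). MLXIPL, the gene of ChREBP, rose in THP-1 from 58 to 272 counts (2.46, 2.05 to 2.89) and went from 497 to 377 in K562 (-0.42, -0.62 to -0.23). TXNIP, the glucose-uptake inhibitor that is the best known MondoA target, went from 15786 to 8354 counts in K562 (-0.94) and rose from 11272 to 24790 in THP-1 (1.37). ARRDC4, its relative and co-target, fell from 2983 to 1109 counts in K562 (-1.45) and rose from 587 to 1403 in THP-1 (1.49). TXNIP in K562 was within 2-fold, and the other 3 values were called. MLXIP and MLX had positive log2 ratios in both lines.

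**Figure D5:**
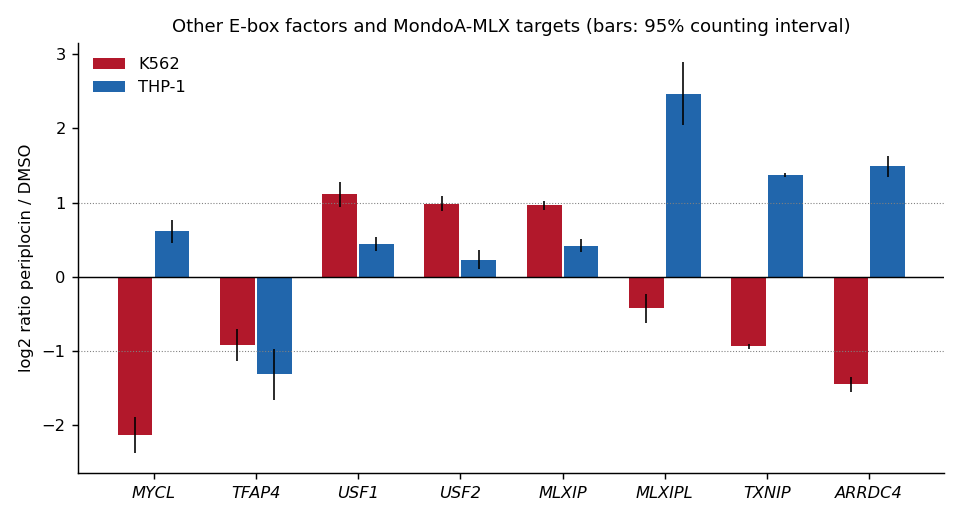
Log2 ratio of periplocin to DMSO for 6 other E-box factors and the MondoA-MLX targets TXNIP and ARRDC4, red K562 and blue THP-1, with black lines for the 95% counting interval and dotted lines at 2-fold. MYCL, MLXIPL, TXNIP and ARRDC4 have opposite signs in the lines, with TXNIP at -0.94 and 1.37.

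The protein partners of the network were mostly within 2-fold, as were most genes. Over all genes tested, 20.4% were called in K562 (8.84% higher, 11.6% lower) and 18.5% in THP-1 (8.03% higher, 10.5% lower). Of 16 SIN3-HDAC corepressor subunits, 1 was called higher in K562, SAP30, from 183 to 391 counts (1.07), and 0 were called in THP-1. The median log2 ratio was 0.27 in K562, where 15 of 16 values were above 0, beside 49.2% of all genes tested. It was 0.11 in THP-1, where 10 of 16 were above 0, beside 48.5% of all genes tested. Of 14 MYC cofactors, KAT5 (349 to 855 counts, 1.27) and DMAP1 (145 to 306 counts, 1.05), both of the TIP60 acetyltransferase complex, were called higher in K562, and KAT2A, another acetyltransferase, was called lower in THP-1 (1516 to 411 counts, -1.65). KAT5 and DMAP1 had log2 ratios of -0.22 and -0.54 in THP-1. Of 13 genes that govern MYC protein turnover, AURKA, a mitotic kinase that also stabilizes MYC proteins, was called higher in K562 (1083 to 4046 counts, 1.87), and 0 were called in THP-1. None of the 14 subunits of the MGA complex was called in either line, with medians of -0.07 in K562 and -0.20 in THP-1.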

How the data were processed

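The authors deposited 1 table of expected counts (estimated counts per gene, not normalized) for 4 poly-A libraries, and 0 of its columns were left unused. The submitters' processing notes name HISAT2, StringTie 1.3.1 and hg38 without giving their roles. The kit named in the labels is not described there as strand-specific. Expected counts were rounded to whole numbers. Symbols were matched by Ensembl identifier for 20310 of 20348 genes, and exon lengths, gene positions and overlaps were taken from GENCODE release 29 (GRCh38). The RefSeq promoter tables are on GRCh38.p14.

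TMM factors were computed per line (edgeR 4.0.16, R 4.3.3), and log2 ratios used a prior count of 0.125. Genes averaging 1 CPM or more were tested, and a count of 3 or fewer was the floor. The fit over 4 libraries used edgeR's quasi-likelihood test on genes with 10 counts in at least 2 libraries, has 1 residual degree of freedom, and was compared with DESeq2 1.42.0. Benjamini-Hochberg adjustment at 0.05 was over all genes fitted, and for 1844 genes DESeq2 gave no adjusted p. Shares of partner transcripts carry delta-method intervals from the counts. Python 3.11.15 with pandas 2.3.3 and scipy 1.17.1 was used. The scripts were tested on simulated data with less spread between libraries than the fit found here. That test checks the code and gives no error rate for these data.

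The members and the 8 gene lists were chosen with earlier results of these data known. Named genes were all members, every gene of a list of 6 or fewer, and in longer lists the 3 highest and 3 lowest ratios among called genes averaging 10 CPM or more in a line; SRM, HK2, RRP9 and THBS1 were named outside this rule. Alternatives were other scalings, a prior count of 2, other fold rules and filters, assumed dispersions, other lengths, and DESeq2.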

Additional observations from a re-analysis of the deposited data

Results flagged for a closer look

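Among the members and the genes named by the rule above, 10 moved in opposite directions in the lines. Each had both counting intervals on its own side of 0. THBS1, named outside that rule, did so too, at -2.14 (-2.63 to -1.68) in K562 and 2.18 (1.22 to 3.30) in THP-1. The share of all genes that moved in this way was not counted. In longer lists the naming rule took only genes past 2-fold in a line, so the number is a description. By the rule used for the members, a difference of at least 1 with an interval that left out 0, 20.5% of 10779 genes differed between the lines. With 1 library per condition the differences between the lines were not tested against replicates. For the 10 genes, the log2 ratios of periplocin to DMSO are given with K562 before THP-1. They were -1.45 and 1.49 for ARRDC4, -0.94 and 1.37 for TXNIP, and -0.42 and 2.46 for MLXIPL. They were -2.13 and 0.61 for MYCL, and -1.12 and 2.44 for CDKN1A. For genes higher in K562 they were 2.80 and -0.42 for NDRG2, 1.85 and -0.96 for SORD, 1.08 and -1.27 for RCL1, 1.27 and -0.22 for KAT5, and 1.05 and -0.54 for DMAP1.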

How the results depend on the processing

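The number of members past the threshold in K562 was 2, became 4 with a 1.5-fold rule, and 0 with a 4-fold rule or with an assumed dispersion between replicates of 0.16. In THP-1 it was 2 and became 1 with total counts, with a 4-fold rule and at a dispersion of 0.16, where MYC was the call left. MXD1 in THP-1 had a log2 ratio of 1.00 with total counts, just under the threshold. At a dispersion of 0.04 the number of members called was 2 in each line as before, and the number whose lines differ went from 3 to 2. Over the 4 libraries the number of members called went from 0 with edgeR to 1 with DESeq2, and stayed at 0 with total counts and with no filter. Of the genes in the lists, 24 of 128 tested were called in K562 and 34 of 130 in THP-1, where 20.4% and 18.5% of all genes were. A 1.5-fold rule gave 47 and 68, a 4-fold rule 3 and 7, and a dispersion of 0.16 gave 9 and 11. The share of MYC among transcripts of the members that pair with MAX is given in the order K562 DMSO, K562 periplocin, THP-1 DMSO and THP-1 periplocin. With the longest coding transcript as length it was 77.9%, 54.2%, 68.6% and 28.7%. It was 56.1%, 27.9%, 48.9% and 14.5% with coding length, and 55.1%, 32.3%, 41.9% and 11.3% with no length. Of 280 recomputed log2 ratios of single genes, 277 kept their direction and their side of the threshold. NDRG1 in K562 went to 0.96 with upper quartile scaling and USF2 in K562 to 1.01 with DESeq2's size factors. Leaving out MXD3, an alternative chosen after seeing the data, gave summed MXD log2 ratios of 0.84 in K562 and 0.18 in THP-1. The labels carry no replicate numbers, so the only pairing is by cell line, which is a term of the fit over the 4 libraries. Intervals and floors cover counting error only.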
